A study of Mus musculus with 24 samples.

Results

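The constitutive proteasome genes were described in 24 single cells sorted as BFU-E (burst-forming units-erythroid), which are early progenitors on the way to red cells. Members were the protein-coding genes whose symbols begin with Psma, Psmb, Psmc, Psmd, Psme or Psmg and a digit, without the immunoproteasome genes Psmb8, Psmb9 and Psmb10. The rule found 46 members among 49585 gene rows, of which 21734 were protein-coding. By known role, 31 members encode subunits of the particle, 14 of them in the core and 17 in the regulatory particle. A further 7 are assembly chaperones, 4 are activators of the core, and 3 are tissue-restricted genes or copies (Psma8, Psmb11 and Psme2b). The last, Psmc3ip, matches by its name only and encodes a factor of meiotic recombination.

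All cells came from C57/Bl6J mice and from fetal liver at embryonic day 14.5, and the labels name no treatment or genetic change. They were sorted after depletion of lineage, Sca-1, CD16/32 and CD41 positive cells, with stains for CD117, CD71 and CD24, by a gate whose limits the sources used here do not state. Each cell was profiled by Smart-seq2, a full-length method without molecular identifiers. The labels tie no cell to an embryo. The 24 cells therefore count as 1 sample, no statistical test was made, and every SD is a spread over cells.

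The proteasome is the main protease for proteins marked with ubiquitin. Its core is a barrel of outer alpha rings and inner beta rings, with the cutting sites inside. The regulatory particle caps the barrel: its base of ATPases unfolds a substrate and opens the alpha ring, and its lid removes the ubiquitin chain. Red cell precursors are known to rely on ubiquitin-dependent breakdown as they remodel their contents during maturation.

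Total counts ran from 876983 to 2155010 per cell, and 4767 to 7349 genes were detected, which means at 5 counts or more. All 7 BFU-E markers (Kit, Gata1, Klf1, Epor, Myb, Gata2 and Tfrc) were detected in at least 12 cells. Of the markers of other lineages, Itga2b, Mpo and Afp passed the same limit, 1 each for megakaryocytes, myeloid cells and hepatocytes, while Pf4, Ppbp, Elane, Ms4a3, Adgre1, C1qa and C1qb had 0 counts in every cell. The summed myeloid markers ran from 0 to 8772 CPM (counts scaled to the total of the cell), with the highest value in cell 1. In cells 1, 9, 19 and 24 both Gata1 and Klf1 stayed under 10 CPM: Gata1 was at 2.48, 2.85, 0 and 0 CPM and Klf1 at 2.48, 2.85, 0.810 and 8.12 CPM. Klf1 was also low in cell 23, at 3.42 CPM, where Gata1 had 886 CPM. Cells 19 and 23 had the fewest genes detected, 4800 and 4767. Some summary values are given with and without some of these cells, a step added after the data were seen. Levels of the catalytic genes, CVs and variance shares are given over all 24 cells only.

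Nearly every member was detected. In total 44 of 46 members were detected in at least 12 cells, a limit passed by 26.1% of protein-coding rows. In every one of the 24 cells 30 members were detected, against 5.17% of protein-coding rows. Psma8, detected in 8 cells, and Psmb11, detected in none, were the exceptions. The 31 subunits of the particle gave 1.19% ± 0.148 of the counts of a cell (mean ± SD, n = 24 cells). This share was lowest in cell 19, at 0.852% (exact 95% binomial interval 0.836 to 0.868), and highest in cell 4, at 1.497% (1.479 to 1.515). Intervals cover counting error only. The fold between the extremes was 1.76, and the mean was 1.21% without cells 19 and 23 and also without cells 1, 9, 19 and 24. Medians in the 3 plate columns of 8 cells were 1.27%, 1.20% and 1.19%.

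By subcomplex, the alpha ring gave 0.347% ± 0.0456 of counts and the beta ring 0.267% ± 0.0482. The base ATPases gave 0.212% ± 0.0423, the other base subunits (Psmd1, Psmd2 and Psmd4) 0.108% ± 0.0293, and the lid 0.257% ± 0.0485. Thus the core and the regulatory particle held nearly equal parts of the reads, 0.614% ± 0.0757 and 0.577% ± 0.0980. Assembly chaperones gave 0.105% ± 0.0302 and activators 0.0790% ± 0.0166. These shares add reads over genes of different lengths, and levels of genes are compared below per length, as TPM (counts per transcript length, scaled to a common total in each cell).

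**Figure D1:**
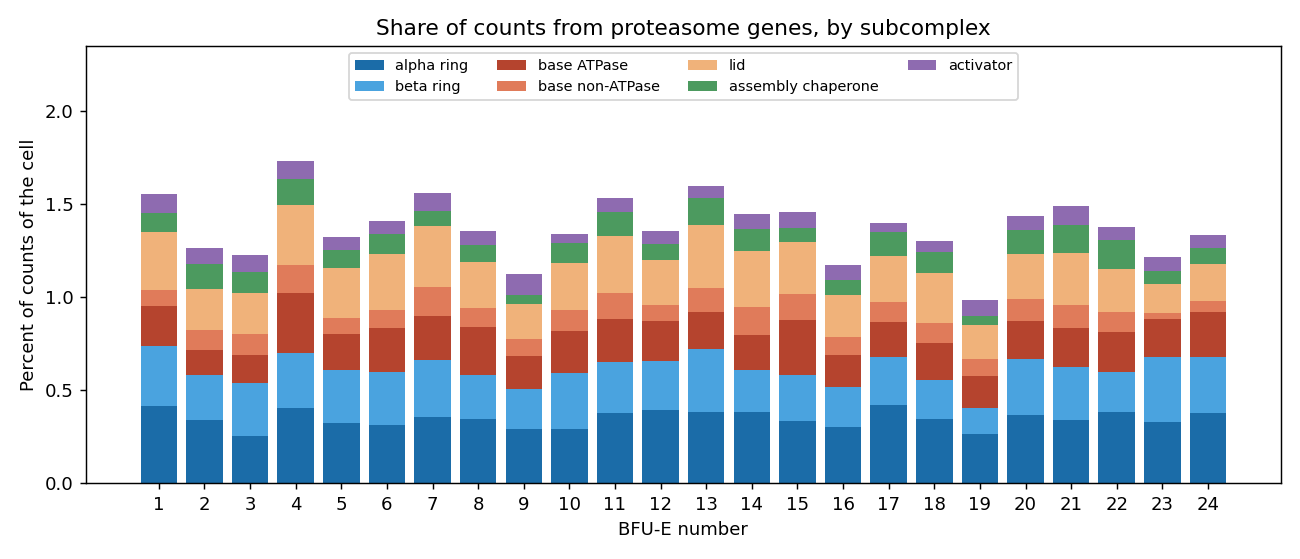
Percent of the counts of each BFU-E (x axis, cell number) that fell on proteasome genes, stacked by subcomplex. Cell 4 has the largest share of particle subunits (1.497%) and cell 19 the smallest (0.852%), and each subcomplex is present in every cell.

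Per length, the core stood above the regulatory particle in all 24 cells. The median subunit of the core was at 559 ± 82.8 TPM (388 to 727), and that of the regulatory particle at 306 ± 60.7 TPM (208 to 452). The ratio of these medians, core over regulatory particle, was 1.88 ± 0.367, lowest in cell 22 at 1.30 and highest in cell 2 at 2.52. It was 1.85 without cells 19 and 23, and 1.85 without cells 1, 9, 19 and 24. The size of the ratio depended on the length used: it was 1.81 with all annotated exons of a gene, 2.42 with the coding length and 1.34 without a length correction, where the core was above in 23 of 24 cells. Between the rings there was no such order. The ratio of the median alpha to the median beta subunit averaged 1.01 ± 0.478, and alpha was above beta in 9 of 24 cells. Cell 24 had the lowest ratio (0.580) and cell 19 the highest (2.93). Without cell 19 the ratio averaged 0.922 ± 0.251, with a highest value of 1.48.

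In the alpha ring, Psma7 was the highest subunit, with a lowest value of 632, a median of 1326 and a highest of 2170 TPM. The lowest subunit was Psma3, with 73.1, 236 and 381 TPM. Both form the gate-bearing outer ring, yet their means of 1338 ± 336 and 225 ± 68.7 TPM were 5.95-fold apart. The ranges did not overlap. Length entered into this gap, since the main transcript of Psma3 has 2846 bases and that of Psma7 has 914. With the coding length Psma7 stood at 847 TPM and Psma3 at 430 TPM. A processed pseudogene of Psma3, Gm13835, matched it over 665 bases at 100% identity and held 730 counts, 5.35% of those of Psma3, so reads between the pair may be split or lost. Psma2 had the smallest spread over cells of any member, with a coefficient of variation (CV) of 22.96% and a range of 222 to 511 TPM around a median of 346 TPM. The other alpha subunits, Psma1, Psma4, Psma5 and Psma6, had means between 536 and 819 TPM.

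**Figure D2:**
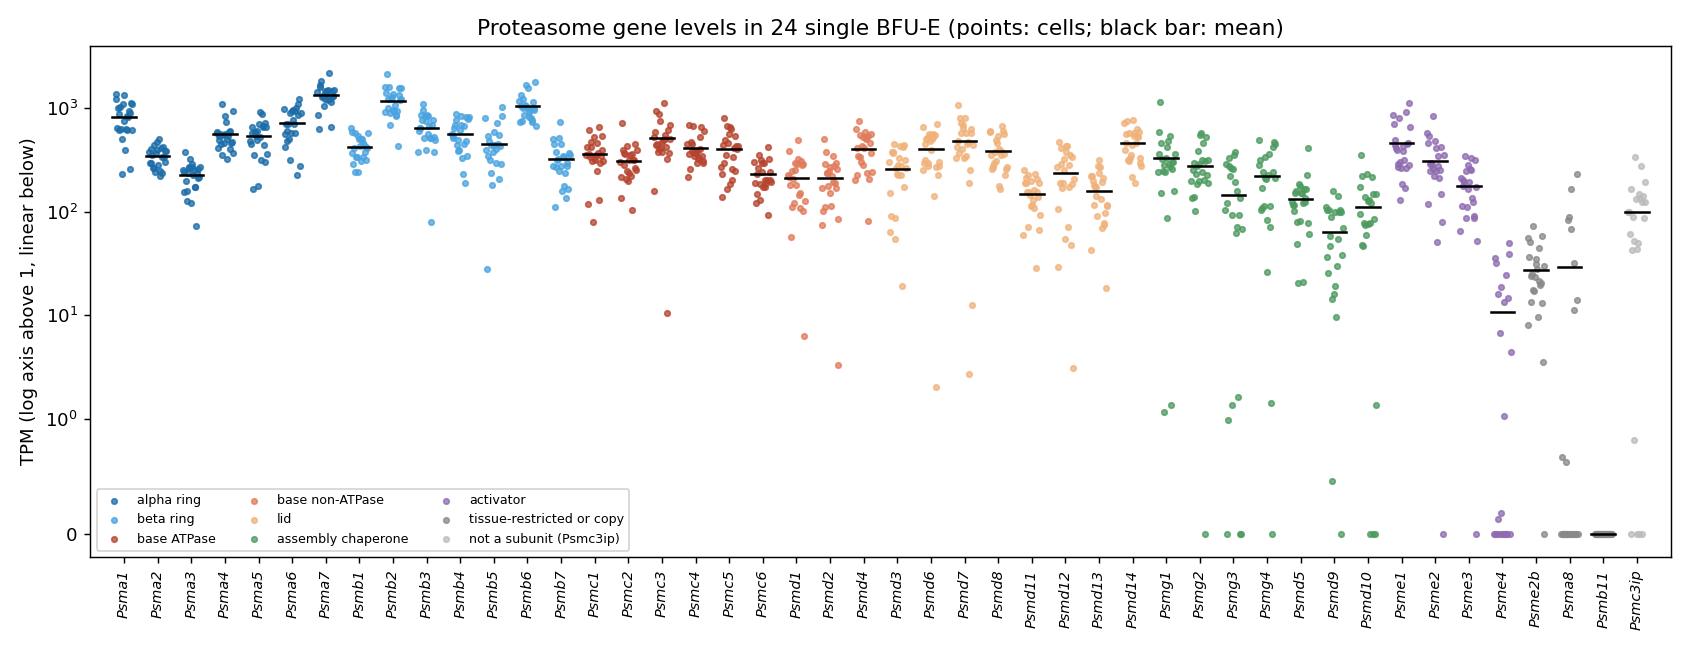
TPM of each of the 46 members in each of 24 cells (points, left to right in cell order), with the mean as a black bar, grouped by subcomplex; the axis is logarithmic above 1 TPM and linear below. The 3 highest means are those of core subunits, Psma7 (1338 TPM), Psmb2 (1182 TPM) and Psmb6 (1049 TPM), while Psma3 (225 TPM) lies among the regulatory subunits, and Psma8, Psmb11 and Psme4 are at 0 in many cells.

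The beta ring holds the cutting sites, and its 3 catalytic genes differed in level. Psmb6, which encodes the caspase-like site, had a lowest value of 674, a median of 1004 and a highest of 1792 TPM. Psmb5, the chymotrypsin-like site and the target of bortezomib, had 27.9, 434 and 1020 TPM. Psmb7, the trypsin-like site, had 111, 304 and 734 TPM. Psmb6 was the highest of the 3 in 23 of 24 cells and Psmb5 in cell 24, while Psmb5 was above Psmb7 in 18 cells. Mean levels were 1049 ± 298 TPM for Psmb6, 452 ± 225 TPM for Psmb5 and 322 ± 141 TPM for Psmb7. The first place turned on the gene length: over all annotated exons Psmb5 averaged 692 TPM, Psmb6 685 TPM and Psmb7 167 TPM, and Psmb5 was then highest in 13 cells. With the coding length the order was again Psmb6 (605 TPM), Psmb5 (264 TPM) and Psmb7 (232 TPM). An overlap also touches Psmb7, since 11.8% of its annotated exon bases lie on the strand opposite to exons of Nek6, and these reads carry no strand.

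Of the beta subunits without a cutting site, Psmb2 was highest, with 435, 1212 and 2152 TPM as its lowest, median and highest values (mean 1182 ± 368 TPM). Psmb1, Psmb3 and Psmb4 had means of 425, 643 and 568 TPM. Psmb7 was thus the lowest of the ring, and the 7 beta subunits spanned 3.68-fold.

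The regulatory particle was more even in its mean levels than the core. Its 17 subunits spanned 3.44-fold between the lowest and the highest mean TPM, against 5.95-fold over the 14 core subunits. The SD of log2 mean TPM was 0.56 over the regulatory particle and 0.74 over the core. With the coding length the difference was small, at 0.52 over the regulatory particle and 0.56 over the core. Among the ATPases, which form the ring that unfolds substrates, Psmc3 was highest, with 10.5, 481 and 1114 TPM and a mean of 516 ± 237 TPM. Psmc6 was lowest, with 93.4, 203 and 425 TPM and a mean of 230 ± 80.4 TPM. Their ranges overlapped. Of the remaining base subunits, the ubiquitin receptor Psmd4 averaged 406 ± 164 TPM, and the large scaffold subunits Psmd1 and Psmd2 averaged 214 ± 111 and 213 ± 110 TPM. Psmd1 and Psmd2 were both at their lowest in cell 23, at 6.34 and 3.33 TPM.

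In the lid, Psmd7 averaged 484 ± 247 TPM, with values of 2.71, 464 and 1073 TPM. Psmd14, the deubiquitinase with which it pairs, was close to it in mean, at 466 ± 167 TPM, with 191, 464 and 773 TPM. The lid subunit Psmd11 was the lowest of the particle, with 28.9, 156 and 256 TPM and a mean of 150 ± 59.5 TPM. Subunits are needed in equal numbers within the core and within the regulatory particle, but their mean levels were 5.95-fold and 3.44-fold apart. Over both particles, from Psmd11 to Psma7, the fold was 8.91, and the SD over the 31 log2 means was 0.79. That SD ran from 0.44 without a length correction to 0.87 with all annotated exons.

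Gaps in the particle were rare. All 31 subunits reached 5 counts in 22 of 24 cells. The exceptions were Psmd7 with 3 counts and Psmd6 with 2 counts in cell 19, and Psmd12 with 3 counts in cell 23. These were the 2 cells of fewest detected genes, and a part of depth or RNA quality in the gaps was not tested.

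The assembly chaperones were lower than the particle itself. Psmg1, which with Psmg2 starts the alpha ring, was the highest, with 1.16, 296 and 1146 TPM and a mean of 328 ± 229 TPM. Psmd9, a chaperone of the base, was the lowest at 0, 56.5 and 160 TPM, with a mean of 63.9 ± 46.2 TPM. An opposite-strand transcript, Gm26745, covers 25.5% of the annotated exon bases of Psmd9 and had 0 counts. Psmg2, Psmg3, Psmg4, Psmd5 and Psmd10 had means between 111 and 276 TPM. Of the 7 chaperones, only Psmd5 was detected in every cell.

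The activators bind the core in place of the regulatory particle. Psme1 had 129, 405 and 1137 TPM, with a mean of 460 ± 259 TPM. Psme2, with which it forms a ring, averaged 310 ± 186 TPM, and Psme3, which forms a ring of its own in the nucleus, 176 ± 92.9 TPM. Psme4, a large single-chain activator, was the lowest and the most variable of the members detected in at least 12 cells. It was detected in 12 cells and at 0 counts in 10, with 0, 0.632 and 50.1 TPM and a CV of 142%. Psme2b is an intronless copy of Psme2, with 99.3% identity between the coding sequences. It held 491 counts, 7.72% of the 6359 counts of Psme2, and its level followed that of Psme2 over cells (Spearman rho 0.887). The counting may have split reads of the pair, and its mean of 27.5 ± 18.2 TPM is uncertain.

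Of the tissue-restricted genes, Psmb11, the catalytic subunit of the thymus, had 0 counts in all cells. At these depths a reading of 0 leaves room for 3 counts, or 1.39 CPM in the deepest cell and 3.42 CPM in the shallowest. Psma8, the testis counterpart of Psma7, had 904 counts in all. The 8 cells with it made 33.3% of the 24 (95% Clopper-Pearson bounds 15.6 and 55.3, if cells are independent draws), and it was at 0 in 14 cells. Cells 22 and 14 had the most, with 264 and 206 counts, followed by cells 12, 10 and 15 with 123, 119 and 116 counts. Cells 19, 18 and 23 had 38, 24 and 12 counts. The 8 cells fell in all plate columns, with 3, 2 and 3 of them in the 3 columns.

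In cell 22, Psma8 reached 230 TPM, against 1326 TPM for Psma7 in the same cell. The coding sequences of Psma8 and Psma7 share 74.3% of their bases. No other annotated transcript matched Psma8 at 95% identity over 100 bases, and no exon of another gene overlapped it. Without cell 22, its mean was 20.01 CPM, against 28.7 CPM over all cells. In the cells with Psma8, Psma7 stood between 1043 and 1484 TPM, apart from cell 19 with 663 TPM. Psmc3ip, the meiotic factor that shares only its name, was detected in 19 cells at 100.3 ± 86.4 TPM, and 21.2% of its exon bases lie opposite to exons of Mlx.

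**Figure D3:**
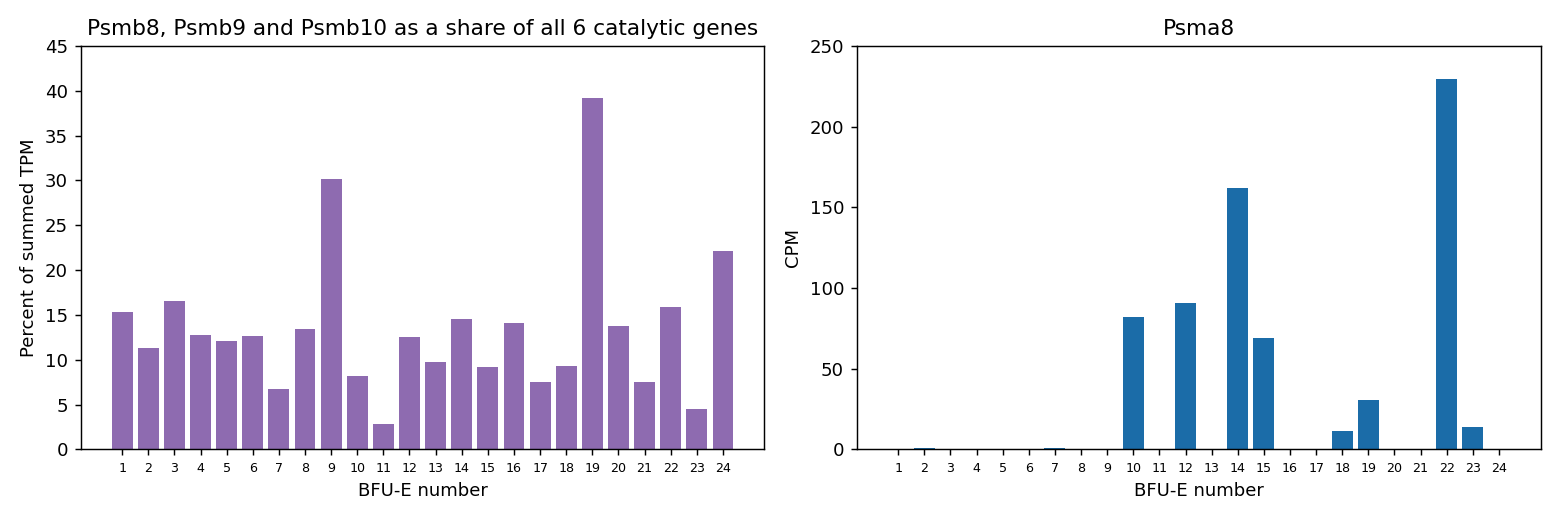
Left, Psmb8, Psmb9 and Psmb10 as a percent of the summed TPM of all 6 catalytic genes in each BFU-E; right, CPM of Psma8 in each BFU-E. The immunoproteasome share ranges from 2.78% (cell 11) to 39.2% (cell 19), and Psma8 is at 0 in 14 cells and at 230 CPM in cell 22.

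Beside the constitutive catalytic genes, their immunoproteasome counterparts had lower means. Psmb8, Psmb9 and Psmb10 were detected in 15, 13 and 22 cells, with means of 86.6 ± 116, 37.0 ± 44.1 and 152 ± 84.5 TPM. Together they made 13.4% ± 7.90 of the catalytic TPM of a cell. Cell by cell, Psmb5 was above Psmb8 in CPM in 21 of 24 cells, Psmb6 above Psmb9 in 24 and Psmb7 above Psmb10 in 20. In cell 19 Psmb5 had 105 CPM and Psmb8 349 CPM. The share was lowest in cell 11 at 2.78%. It was highest in cells 19, 9 and 24, at 39.2%, 30.1% and 22.1%, which are 3 of the 4 cells with low Gata1 and Klf1; the other, cell 1, had 15.3%. Without cell 19 the share was 12.3% ± 5.79, and without all 4 cells 10.7% ± 3.75. Whether the state of these cells has a part in the share was not tested.

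The spread over cells was smaller for the particle than for most genes, and its level was higher. The median CV of CPM was 38.4% over the 31 subunits, 33.7% in the core and 43.1% in the regulatory particle. Over 925 other protein-coding genes in the same range of mean CPM it was 48.5%, and over all 5663 genes detected in at least 12 cells 87.2%. Levels were not matched within that range: the median of mean TPM was 242 for the 925 genes and 406 for the subunits. These medians are per length, unlike the CPM range and the CV, and medians in CPM are not given. The 8 genes of the cytosolic chaperonin, another multi-subunit machine, had a median CV of 32.6% and 76 cytosolic ribosomal protein genes 19.2%. Counting error alone would give a median CV of 4.28% for the particle subunits, at a median of 529 counts per cell. This figure takes reads as independent, which PCR copies are not. On the log2(CPM + 1) scale, 23 of 31 subunits had a variance under the trend of genes of like level, against 51% of genes. These were 13 of 14 core subunits and 10 of 17 regulatory subunits, the second count lying near the share of all genes. The widest spread in the particle was that of Psmd12, at a CV of 58.6%, with values from 3.11 to 478 TPM.

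**Figure D4:**
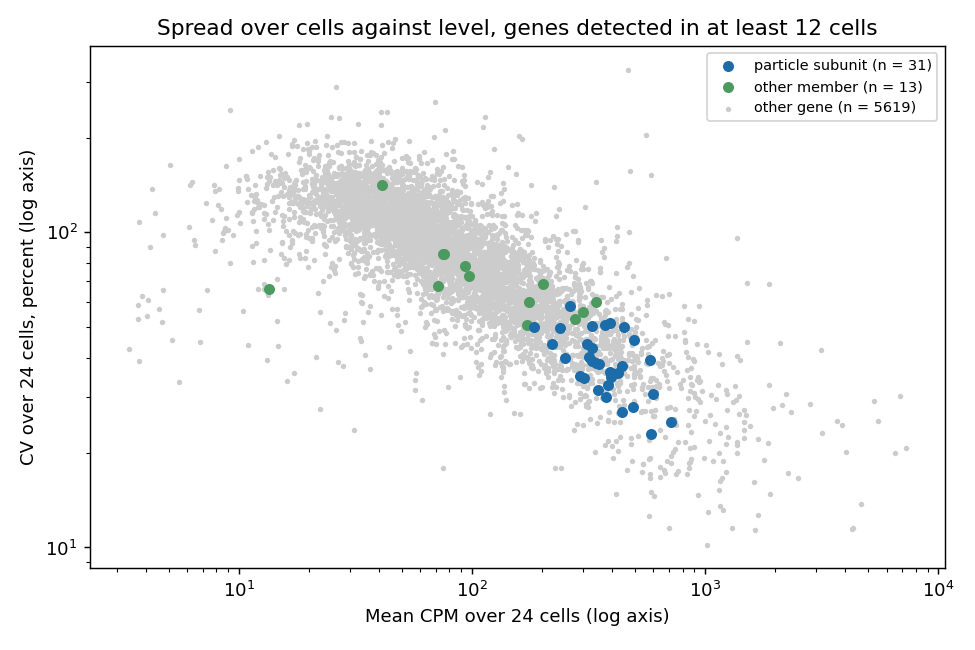
CV over 24 cells (percent) against mean CPM, both on log axes, for protein-coding genes detected in at least 12 cells. The 31 particle subunits (blue) have CVs of 22.96% to 58.6% and lie at the high-level end; the 13 other members that passed (green) have CVs of 51.0% to 142%, and the groups overlap on both axes.

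Cells shared an order of subunits, more so in the core than in the regulatory particle. Pairs of subunits were on average only weakly related over cells. Across the 31 subunits, a pair of cells had a mean Spearman rho of 0.622 (0.153 to 0.862 over all pairs of cells). The mean was 0.671 across the core subunits (0.235 to 0.934) and 0.423 across the regulatory subunits (-0.412 to 0.833). These are correlations across genes, which are not independent replicates. Of the variance in log2(TPM + 1) over subunits and cells, 48.4% lay between subunits, 6.72% between cells, and 44.9% was particular to a subunit in a cell. In the core the part between subunits was 61.1%, and in the regulatory particle 23.7%. For the 8 chaperonin genes the mean rho between cells was 0.506, and 39.2% of the variance lay between genes. Length enters into these figures, since a gene is divided by the same length in every cell. The SD of log2 mean levels over the 31 subunits was 0.79 per length and 0.44 without a length correction.

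Over cells, the 465 pairs of particle subunits had a mean Spearman rho of 0.0537. All rho values over cells describe 24 cells that carry the same set label and differ in depth. Whether they shared a library preparation was not established. The rho was above 0 in 282 pairs and at least 0.5 in 4, and it ranged from -0.595 to 0.664. The same counts over pairs of all genes are not given, so these counts are no finding about the subunits. The mean was 0.0480 within the core, 0.0689 within the regulatory particle and 0.0472 between them. Within the core the mean was 0.0283 without cell 19 and 0.00436 without cells 1, 9, 19 and 24. For all genes detected in at least 12 cells the mean was 0.00953, and for other genes in the CPM range of the subunits 0.0208. It was 0.144 for the chaperonin and 0.132 for ribosomal proteins. Values this weak in single-cell counts are no finding of joint variation.

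By subcomplex the beta ring had the highest mean rho, 0.140, which was 0.0932 without cell 19. The alpha ring had 0.0139, the ATPases 0.0626, the other base subunits -0.0675 and the lid 0.0236. Subunits that touch in a ring were no closer than others. In the alpha ring the 7 neighbour pairs averaged -0.0769 and the 14 other pairs 0.0593, and in the beta ring they averaged 0.145 and 0.138.

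**Figure D5:**
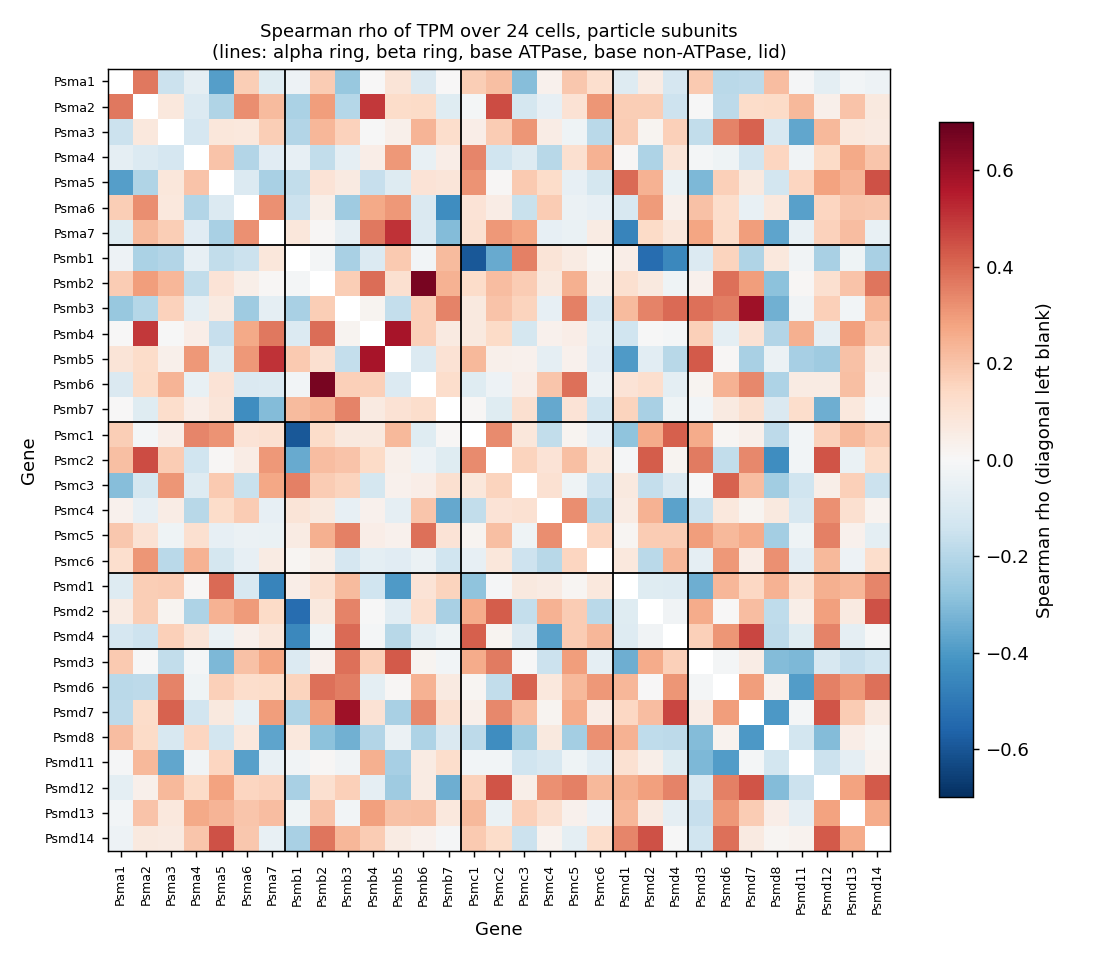
Spearman rho over 24 cells of TPM for each pair of the 31 particle subunits, from blue (negative) to red (positive), with lines between subcomplexes and the diagonal left blank. No block along the diagonal stands out, and the strongest single pair is Psmb2 with Psmb6 (0.664).

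The 5 highest pairs were Psmb2 with Psmb6 (0.664), Psmb3 with Psmd7 (0.594), Psmb4 with Psmb5 (0.576), Psma7 with Psmb5 (0.504) and Psma2 with Psmb4 (0.493). Leaving out any single cell kept Psmb2 with Psmb6 between 0.630 and 0.721, but the plate columns gave 0.595, 0.643 and -0.214. Psma7 with Psmb5 gave 0.738, 0.476 and 0.786 in the columns, and Psma2 with Psmb4 0.524, 0.619 and 0.714. The lowest pairs were Psmb1 with Psmc1 (-0.595), Psmb1 with Psmd2 (-0.531), Psma7 with Psmd1 (-0.460), Psmb1 with Psmd4 (-0.450) and Psmc2 with Psmd8 (-0.436). In the plate columns, Psmb1 with Psmc1 gave -0.714, -0.0476 and -0.595, and Psmb1 with Psmd2 gave -0.929, 0.262 and -0.952, so the direction of the second did not hold in column 2. These extremes were picked from all pairs. Psmb1 was in 3 of the 5 lowest pairs.

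No known partner pair listed here reached a rho of 0.5. Psmc1 with Psmc2 and Psmc4 with Psmc5, ATPases that pair during assembly of the base, had 0.329 and 0.324. These were the highest values among pairs of ATPases, ahead of Psmc2 with Psmc5 at 0.210. The plate columns gave 0.714, 0.0714 and -0.0714 for Psmc1 with Psmc2, and 0, 0.524 and 0.190 for Psmc4 with Psmc5. The third such pair, Psmc3 with Psmc6, had -0.147. The chaperone pairs Psmg1 with Psmg2 and Psmg3 with Psmg4 had -0.0435 and -0.259. The activator pair Psme1 with Psme2 had 0.0643, and 0.274 without cells 19 and 23.

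Promoters are shown for the beta ring genes found among the reference promoters, which are Psmb3, Psmb4, Psmb5 and Psmb6. Those of Psmb1, Psmb2 and Psmb7 were missing. Each line gives the 120 bases before the start in RefSeq, build GRCm38.p6, read 5′ to 3′ on the strand of the gene. Capitals mark matches to the core of the antioxidant response element, TGACNNNGC, or to the CCAAT box, CCAAT, on either strand. Both motifs are known from proteasome promoters of mammals, the first as a site of factors of the Nrf family. The stretches are chr11:97703314-97703433 (plus strand) for Psmb3, chr3:94886959-94887078 (minus) for Psmb4, chr14:54617996-54618115 (minus) for Psmb5 and chr11:70525237-70525356 (plus) for Psmb6.
Psmb3: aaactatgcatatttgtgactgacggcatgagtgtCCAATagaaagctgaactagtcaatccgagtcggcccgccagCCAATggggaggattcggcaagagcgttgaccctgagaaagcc
Psmb4: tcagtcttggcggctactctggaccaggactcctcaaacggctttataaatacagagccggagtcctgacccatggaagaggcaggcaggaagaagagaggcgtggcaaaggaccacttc
Psmb5: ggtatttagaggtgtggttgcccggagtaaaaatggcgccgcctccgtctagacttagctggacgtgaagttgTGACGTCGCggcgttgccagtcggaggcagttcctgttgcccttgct
Psmb6: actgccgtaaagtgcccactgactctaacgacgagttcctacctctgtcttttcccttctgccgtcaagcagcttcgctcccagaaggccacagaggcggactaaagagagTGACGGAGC

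Psmb5 had a match to the antioxidant response element core that begins 47 bases before the start and Psmb6 one that begins 9 bases before it. Psmb3 had CCAAT at 85 and 43 bases before its start, and the stretch of Psmb4 held neither set of letters. In the whole window of 300 bases, 6 of 41 member promoters (14.6%) held TGACNNNGC, against 12.4% of all 32851 promoters. They belong to Psmb5, Psmb6, Psmc6, Psmd9, Psmd12 and Psme4. CCAAT was in 14 of 41 (34.1%), against 37.4% of all promoters. Both shares lie close to those of all promoters, and a match is a description of letters only. The table held 38 of the 46 members, without Psma8, Psmb1, Psmb2, Psmb7, Psmc3, Psmd3, Psmd7 and Psmg2.

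Each particle subunit was compared with the summed TPM of the other 30 subunits. The rho was at least 0.5 for 0 of 31 subunits, against 2.98% of all genes compared with the sum of all 31. Among other genes in the CPM range of the subunits it was 54 of 925. With 31 subunits the count lies near the share of all genes and is no finding about them. The median rho was 0.207 over the subunits, 0.113 over genes in their CPM range and 0.0679 over all genes. It was highest for Psmb2, Psmd12 and Psmd7 (0.447, 0.410 and 0.400) and lowest for the lid subunit Psmd8 (-0.379).

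The sum itself was compared with other lists over the same cells, as rho of summed TPM unless stated. TPM values of a cell share 1 total, so a rise of one large group lowers the rest. The summed TPM of cytosolic ribosomal protein genes ran against the particle sum, with a rho of -0.671, a Pearson r of -0.617 on the log2 scale, and -0.762, -0.571 and -0.714 in the plate columns. With TMM scaling the rho was -0.420. Single genes were more weakly related: the median rho of the 76 genes was -0.185, with 61 below 0 and 15 above, from -0.922 to 0.512. The summed chaperonin ran with it, at a rho of 0.537 and r of 0.703, which was 0.399 without the 2 cells farthest from the median, and 0.643, 0.262 and 0.524 in the columns. With median-ratio scaling its rho was 0.156. The median over its 8 genes was 0.349, with 7 above 0 and 1 below. For scale, the median over all genes compared was 0.0679, and their share above 0 is not given here. The assembly chaperones had a rho of 0.548 and an r of 0.736, or 0.423 without 2 such cells.

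The summed TPM of 14 early progenitor genes ran against the particle sum. The rho was -0.631 and the r -0.552, with -0.690, -0.548 and -0.690 in the columns, and the rho was -0.364 with median-ratio scaling. Of the 10 genes detected in at least 12 cells, 8 had a rho below 0 and 2 above, with a median of -0.221, from -0.570 for Cd48 to 0.426 for Nr3c1. The erythroid maturation list had a rho of 0.274 (r 0.397, and 0.155 without 2 cells). Single genes were more often positive: of its 17 genes detected in at least 12 cells, 14 had a rho above 0 and 3 below. Their median was 0.354, against 0.0679 over all genes compared, and they ran from -0.173 for Car1 to 0.563 for Klf1. Car1 had a mean of 787 ± 1586 TPM and so weighed heavily in the sum. S phase genes had 0.212, which was 0.456 without cells 1, 9, 19 and 24. Genes of G2 and M phase had a rho of 0.238 with an r of 0.573, and a rho of 0.0526 without those 4 cells. Immunoproteasome genes had -0.224. Mitochondrially encoded genes, summed as CPM, had -0.568, with -0.833, 0.262 and -0.690 in the columns, so the direction did not hold within the second. Total counts had 0.223 and genes detected 0.453. Whether depth, RNA quality or the stage of a cell has a part in these relations was not tested.

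Of 30 genes that act with the proteasome in the ubiquitin pathway, 10 were detected in every cell and 25 passed the limit of 12 cells. The highest per length were Rps27a at 2368 ± 579 TPM and Ubb at 504 ± 225 TPM, which both encode ubiquitin (Rps27a as a fusion with a ribosomal protein), and Pomp, the maturation factor of the core, at 346 ± 121 TPM. The sum of the list had a rho of 0.0383 with the particle sum. Only Adrm1, a ubiquitin receptor of the base, reached a rho of 0.5 with the particle sum, at 0.657. It was named after its value was seen. Nfe2l1, which drives proteasome genes when the proteasome is inhibited, was detected in 9 cells at a mean of 8.33 ± 15.5 TPM.

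Among genes outside the family, the 10 that followed the particle sum most closely had rho values between 0.682 and 0.764 over 24 cells. They were Ppa1, Tomm5, Slc25a4, Abcf2, Gart, Ybx1, Mogs, Nubp2, Mrpl57 and Hspd1. Ppa1, an inorganic pyrophosphatase, led at 0.764, with 144, 385 and 1029 TPM as its lowest, median and highest values. Tomm5 and Slc25a4, of the outer and inner mitochondrial membrane, had 0.760 and 0.759. Hspd1, the mitochondrial chaperonin, had 0.682. They are the extremes of 5663 genes and were picked for their rho.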

How the data were processed

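The authors deposited raw counts of reads per gene with a column for every cell, and these were used unchanged. STAR 2.4, featureCounts and GRCm38 are named, per the submitters' processing notes. The annotation release and counting options are not stated in the sources used here. Per the labels' protocols the libraries carry no strand. Symbols, exons and lengths came from GENCODE M21 (GRCm38), which matched 49326 of 49585 identifiers; the 259 others hold 0.0295% of counts.

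CPM used the total over all rows. TPM used the length of the principal transcript. A gene was detected at 5 counts or more, and correlations used genes detected in at least 12 cells. The variance trend was a lowess fit (span 0.3) of genes in at least 6 cells, with a pseudocount of 1. Near copies were annotated transcripts of at least 95% identity over 100 bases. Plate columns are read from the well names in the labels, and a single plate was inferred from those names. Python 3.11.15 (pandas 2.3.3, scipy 1.17.1, statsmodels 0.14.6) was used, and edgeR 4.0.16 only for TMM scaling. The co-variation measures, which are descriptions with no test, were checked on simulated counts with known correlation. The simulated sets were larger, and their seeded correlations were well above the mean rho values found here. The check therefore does not show how well such weak values are resolved.

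The members, lists and thresholds were chosen with earlier results of these data known. Values are given for the catalytic subunits, the highest and lowest member of each subcomplex, members in fewer than 12 cells, the extremes of CV, the 5 highest and 5 lowest pairs, known partner pairs, the immunoproteasome genes, the 10 genes most like the particle sum, and the 3 highest ubiquitin-pathway genes. Other genes were named after their values were seen. Alternatives were other scalings, lengths, thresholds, thinned counts and fewer cells.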

Additional observations from a re-analysis of the deposited data

How the results depend on the processing

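The number of members detected in at least 12 cells, 44, stayed between 43 and 45 under other thresholds and with counts thinned to the shallowest cell. Shares of counts and the median CV moved by less than their spread under the alternatives run. The length used moved levels: without length the core median was 417 CPM and its ratio to the regulatory particle 1.34, and with the coding length, added after seeing the data, the regulatory median was 212 TPM and the ratio 2.42. The SD of log2 levels was 0.87 with all exons, 0.44 without length, 0.80 with the coding length, 0.81, 0.81 and 0.81 in columns 1, 2 and 3, and 0.78 to 0.80 leaving out each cell. Mean rho in the regulatory particle was 0.0214 with median-ratio scaling, 0.0829 and 0.0832 as Pearson's r with pseudocounts of 1 and 10, 0.0946 centred within columns, 0.0522 in column 3, and 0.0537 to 0.0767 leaving out each cell. Between the particles it was 0.109 in column 1.

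Relations to the particle sum moved most. With TMM scaling ribosomal proteins had -0.420, and with median-ratio scaling -0.509, the chaperonin 0.156 and early progenitor genes -0.364 (scalings added after seeing the data). As Pearson's r, G2 and M phase genes had 0.573, and 0.735 without 2 cells, immunoproteasome genes had -0.451, and genes detected 0.170 without 2 cells. In column 2 alone the mitochondrially encoded genes reversed to 0.262, and total counts had -0.238, genes detected 0.738, ribosomal proteins -0.571, assembly chaperones 0.190, the chaperonin 0.262, the ubiquitin list -0.333 and early progenitor genes -0.548. In column 3 S phase genes had -0.310, G2 and M phase genes 0.524 and maturation genes 0. Early progenitor genes ran from -0.744 to -0.587 leaving out each cell. Leaving out cells 1, 9, 19 and 24, added after seeing the data, moved no relation by more than its SD over columns, though the ubiquitin list went to -0.0677 from a rho of 0.0383. The cause was not tested; a column holds 8 cells. No paired analysis was possible because there is 1 group. Depth limits the sparse members: 1 to 3 counts cannot be told from 0.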

Other observations

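Of all 5663 genes compared, Rpl32, a protein of the large ribosomal subunit, ran most strongly against the particle sum. Its rho was -0.922 over 24 cells, and its r on the log2 scale -0.897. Leaving out each cell gave -0.932 to -0.911, and the plate columns gave -1, -0.905 and -0.905. The relation was weaker under other scalings, at -0.732 with TMM and -0.603 with median-ratio factors. Rpl32 had 2032, 3483 and 5646 TPM as its lowest, median and highest values. The elongation factor gene Eef1a1 had a rho of -0.734, and Crlf3, Pnrc1 and Prkcsh had -0.758, -0.741 and -0.712. These genes were named after their values were seen, and TPM values of a cell share 1 total.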
